A study of Mus musculus with 2 samples.

Results

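The genes of cone phototransduction were examined by ATAC-seq in neural retina of adult C57BL/6 mice, in 1 library from a Gabra3 knockout mouse and 1 library from a wild-type littermate. The members were 10 genes listed by name, all of which were found among the 21887 protein-coding genes of the GRCm38 gene table: Opn1sw, Opn1mw, Arr3, Gnat2, Pde6c, Pde6h, Cnga3, Cngb3, Gnb3 and Gngt2. In ATAC-seq the Tn5 transposase inserts adapters into accessible DNA, and each read marks 1 insertion. Each library was made from 20000 nuclei of flash-frozen tissue. Gabra3 encodes a GABA-A receptor subunit, alpha 3, and the series asks how accessibility differs in its absence. The labels give neither the sex of the mice nor the nature of the knockout allele. With 1 library per genotype there is no replicate check and no test: every ratio compares these libraries, not the genotypes, and every interval is an exact 95% interval of counting error only.

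Cones are the photoreceptors of daylight and colour vision, and in the mouse retina they are far outnumbered by rods. Light isomerises the chromophore of an opsin, the opsin activates the G protein transducin, and transducin releases the catalytic activity of a phosphodiesterase that hydrolyses cyclic GMP. Cyclic nucleotide-gated channels then close and the cell hyperpolarises, until arrestin and other proteins end the response. Rods and cones use separate genes for most of these steps.

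The RefSeq promoter table held 7 promoter windows of 300 bp for 6 of the members, with 2 for Cnga3. The 4 windows below belong to genes that differed in whether an open region was called at the transcript start. With both libraries called together, the starts of Opn1sw and Arr3 lay inside an open region, and those of Opn1mw and Gnat2 did not. Knockout and wild-type counts within 500 bp were 16 and 19 for Opn1sw and 17 and 14 for Arr3. They were 17 and 10 for Gnat2 and 10 and 6 for Opn1mw. Summed over both libraries the counts were 35 for Opn1sw, 31 for Arr3, 27 for Gnat2 and 16 for Opn1mw. Open regions were called on 200 bp windows, so these wider counts do not settle the calls. Capitals mark TAATC on either strand, the core of the sites bound by the photoreceptor factor CRX and related homeodomain proteins. The sequences are RefSeq's, of build GRCm38.p6, written 5′ to 3′ on the strand of the gene.
Opn1sw, chr6:29380464-29380763, minus strand: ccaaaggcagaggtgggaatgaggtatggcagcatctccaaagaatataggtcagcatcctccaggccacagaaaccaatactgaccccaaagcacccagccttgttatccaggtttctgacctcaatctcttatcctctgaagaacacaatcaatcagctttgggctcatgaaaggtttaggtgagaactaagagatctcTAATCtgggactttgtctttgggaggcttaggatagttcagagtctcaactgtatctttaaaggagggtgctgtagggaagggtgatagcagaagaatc
Opn1mw, chrX:74127216-74127515, plus strand: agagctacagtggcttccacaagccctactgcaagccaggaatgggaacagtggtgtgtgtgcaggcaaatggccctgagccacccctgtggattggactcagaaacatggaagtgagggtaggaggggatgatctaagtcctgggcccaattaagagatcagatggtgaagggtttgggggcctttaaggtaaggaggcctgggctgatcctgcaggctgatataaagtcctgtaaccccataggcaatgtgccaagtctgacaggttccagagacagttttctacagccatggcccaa
Arr3, chrX:100605247-100605546, plus strand: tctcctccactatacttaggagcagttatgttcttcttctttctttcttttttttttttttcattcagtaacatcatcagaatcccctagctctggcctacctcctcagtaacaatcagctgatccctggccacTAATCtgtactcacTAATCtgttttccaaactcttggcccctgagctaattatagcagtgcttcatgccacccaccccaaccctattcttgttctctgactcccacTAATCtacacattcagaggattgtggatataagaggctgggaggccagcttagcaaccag
Gnat2, chr3:108092816-108093115, plus strand: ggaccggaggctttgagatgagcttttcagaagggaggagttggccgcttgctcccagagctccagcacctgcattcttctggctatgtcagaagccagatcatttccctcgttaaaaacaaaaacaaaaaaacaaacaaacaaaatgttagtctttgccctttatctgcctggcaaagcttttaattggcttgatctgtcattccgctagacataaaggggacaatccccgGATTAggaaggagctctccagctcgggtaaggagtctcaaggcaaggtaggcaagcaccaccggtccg
TAATC was found in 3 of the 7 member windows, once in Opn1sw and Gnat2 and 3 times in Arr3, against 22.0% of all 32851 promoter windows of the table with at least 1 match and 0.658% with 3 or more. The longer TAATCC, which contains TAATC, was found in Gnat2 alone of the 7 and in 7.06% of all windows. AGGTCA, a hexamer bound by nuclear receptors, was found at 2 places in Opn1sw and in none of the other member windows, and 1.81% of all windows held 2 or more. CANNTG, the E-box, was found in 7 of 7 member windows and 72.3% of all windows, and TATAAA in Opn1mw, in the second window of Cnga3 and in 13.6% of all. Both strands were searched, and a match is a description of these letters, not a site.

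The loci of most cone phototransduction genes had an insertion density near that of the median gene, in both libraries. Counted over the gene body with 5 kb either side, their density had a median of 0.612 insertions per kb per 1000000 autosomal insertions (IPKM) in the knockout library. In the wild-type library the median was 0.652 IPKM, and all 21887 genes had medians of 0.658 IPKM in the knockout and 0.652 IPKM in the wild type. The comparison depended on the window. Over gene bodies alone the knockout and wild-type medians were 0.732 and 0.759 IPKM, against 0.618 and 0.604 for all genes. Within 500 bp of gene ends they were 1.10 and 0.870, against 1.20 and 1.20. Gnb3 stood at percentile 98.7 of all genes for the knockout and 98.1 for the wild type, and Cngb3 at 24.3 and 24.1. The count of Gnb3 includes flanks that hold ends of neighbouring genes. In retina as a whole, fewer cones and less accessible DNA per cone cannot be told apart.

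In order of density over both libraries, Gnb3 came first with 3.23 IPKM in the knockout library and 3.05 IPKM for wild type, and Gnat2 followed with 1.10 and 1.01. Pde6h had 0.799 and 0.901, Opn1sw 0.792 and 0.736, and Pde6c 0.665 and 0.699. Arr3 had 0.471 and 0.588, Opn1mw 0.559 and 0.447, Gngt2 0.393 and 0.605, and Cnga3 0.522 and 0.469. Cngb3, the longest of the genes at 229774 bp, came last with 0.241 in both libraries. In each library the intervals of Gnb3 (2.91 to 3.57 in the knockout, 2.75 to 3.38 in the wild type) and of Cngb3 (0.219 to 0.265 in both) overlapped no other member's. The interval of Gnat2 overlapped that of Opn1sw in both libraries and that of Pde6h in the wild type, and the intervals of Arr3, Opn1mw, Gngt2 and Cnga3 overlapped each other in both. The 5 kb flanks of Gnb3 hold ends of neighbouring genes. Over 1 kb from other genes' ends Gnb3 had 1.34 IPKM in the knockout and 1.06 in the wild type. Gnat2 had 1.06 and 0.930 by the same count, which leaves out the higher end of Gnb3 as well.

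**Figure D1:**
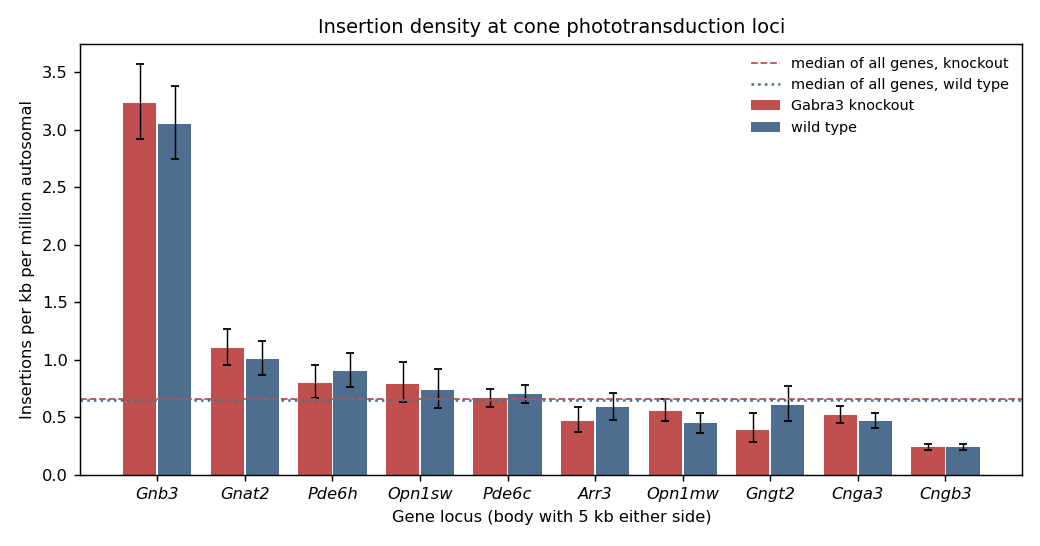
Insertions per kb per 1000000 autosomal insertions (IPKM) over each gene body with 5 kb either side, for the knockout library (red, left) and the wild-type library (blue, right), with exact 95% counting intervals as error bars and the medians of all 21887 genes as lines. Gnb3 lies at 3.23 and 3.05 and Cngb3 at 0.241 in both, with the other 8 genes between 0.393 and 1.10. The flanks of Gnb3 hold ends of neighbouring genes.

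The opsins are the light-sensitive receptors: Opn1sw encodes the short-wave and Opn1mw the middle-wave opsin. For each gene below, the positions after its name are those of the gene body, and locus counts include 5 kb either side. The Opn1sw locus (body on chromosome 6, 29376671 to 29380513) held 82 knockout and 76 wild-type insertions, a log2 ratio of 0.11 (-0.36 to 0.58). Its transcript start lay in an open region of 300 bp (29380300 to 29380599) with 8 knockout and 10 wild-type insertions, which was called in the wild-type library and not in the knockout library when each was called alone. The log2 ratio of the region was -0.31, and its interval of -1.87 to 1.17 included 0 and 2-fold either way.

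Opn1mw (chromosome X, 74127466 to 74150756) held 139 knockout and 111 wild-type insertions at its locus, a log2 ratio of 0.32 (-0.05 to 0.70). No open region lay within 500 bp of its start, where 10 knockout and 6 wild-type insertions fell. The open region of the locus (74123400 to 74123899) had its nearer edge 3567 bp upstream of the start, was called in each library alone, and held 22 knockout and 24 wild-type insertions (log2 ratio -0.13, -1.03 to 0.77). In human, a locus control region upstream of the long- and middle-wave opsin genes is needed for their expression in cones; whether the mouse region corresponds to it was not tested. Over the gene body alone the counts were 81 and 56, and the interval left 0 (0.53, 0.02 to 1.05).

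Arr3, the cone arrestin, ends the activity of the opsins. Its locus (body on chromosome X, 100605480 to 100618493) held 81 knockout and 101 wild-type insertions, a log2 ratio of -0.32 (-0.76 to 0.12). An open region of 400 bp (100605200 to 100605599) covered the transcript start and held 15 knockout and 12 wild-type insertions, and was called in the knockout library and not in the wild-type library when each was called alone. The body alone held 25 knockout and 44 wild-type insertions, and its interval left 0 (-0.81, -1.59 to -0.08). Opn1mw and Arr3 are the X-linked members, and chromosome X held 2.17% of knockout and 2.20% of wild-type insertions. Scaled to chromosome X the log2 ratios of their loci were 0.34 and -0.30. Gabra3 itself lies on chromosome X (72432676 to 72656919), nearer to Opn1mw than to Arr3. Any part of that nearness in the Opn1mw ratio was not tested.

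Transducin is built from Gnat2, its cone alpha subunit, with Gnb3 and Gngt2, the cone beta and gamma subunits. The Gnat2 locus (body on chromosome 3, 108086788 to 108101432) held 203 knockout and 185 wild-type insertions (0.13, -0.16 to 0.43). Its RefSeq start lay 6278 bp inside the outermost end of the gene, with 17 knockout and 10 wild-type insertions within 500 bp and no open region there. The main open region began 1034 bp downstream of the start (108094100 to 108094549), was called in each library alone, and held 28 knockout and 30 wild-type insertions.

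Gnb3 (chromosome 6, 124834240 to 124840275) held 387 knockout and 365 wild-type insertions at its locus (0.08, -0.13 to 0.29), and its ends alone among the members reached 100 insertions summed. Most of these insertions lay near ends of neighbouring genes: the window within 500 bp of the Usp5 end, shared with Cdca3 and reaching past the locus, held 255 knockout and 257 wild-type insertions. Usp5 encodes a ubiquitin-specific protease. Over 1 kb from the ends of other genes, which leaves out the higher end of Gnb3 as well, the locus held 108 and 85 insertions, at 1.34 IPKM in the knockout and 1.06 IPKM in the wild type. An open region at the higher end of Gnb3 (124839850 to 124840749) held 66 knockout and 72 wild-type insertions and lay 340 bp from an end of P3h3, a prolyl hydroxylase gene. The body of Gnb3 held 98 knockout and 64 wild-type insertions (0.61, 0.14 to 1.09), while the window within 500 bp of its higher end held 69 and 75.

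Gngt2 (chromosome 11, 95841772 to 95845734) was the 1 member whose locus interval left 0. The locus held 41 knockout and 63 wild-type insertions, a log2 ratio of -0.62 (-1.23 to -0.03), or 0.652 times the wild-type density. Among all 16724 loci with at least 100 insertions summed, 7.00% had an interval off 0, and 1 of the 10 members did. The open region of Gngt2 lay inside the gene (95843500 to 95843949), was called in each library alone, and held 11 knockout and 21 wild-type insertions (-0.91, -2.13 to 0.18). Away from the ends of other genes, Abi3 among them, the counts were 33 and 51 and the interval reached 0 (-0.62, -1.31 to 0.03), and so did that of the body alone (27 and 39). With scaling to insertions in open regions the locus interval of Gngt2 also reached 0 (-1.16 to 0.03), while that of Opn1mw left it (0.01 to 0.76).

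The cone phosphodiesterase consists of Pde6c, its catalytic subunit, and Pde6h, its inhibitory subunit. Pde6c (chromosome 19, 38132781 to 38183955) held 304 knockout and 319 wild-type insertions at its locus (-0.07, -0.30 to 0.16). Of its 3 open regions the one with most insertions (38134000 to 38134449; 19 knockout and 17 wild-type) lay 1219 bp inside the gene and 47 bp from an end of the non-coding RNA gene Gm32440. Pde6h (chromosome 6, 136952218 to 136963485) held 127 knockout and 143 wild-type insertions at its locus (-0.17, -0.53 to 0.18), and 11 and 7 lay within 500 bp of its RefSeq start. Beside it, an open region of 200 bp (136949550 to 136949749) held 3 knockout and 11 wild-type insertions, a pair of counts whose interval still included 0 (-1.72, -4.36 to 0.04).

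The cone channel is formed by Cnga3 and Cngb3, its alpha and beta subunits. Cnga3 (chromosome 1, 37218241 to 37263384) held 215 knockout and 193 wild-type insertions at its locus (0.15, -0.13 to 0.44). Neither of its RefSeq starts had an open region within 500 bp, with 12 knockout and 10 wild-type insertions at the first and 10 and 11 at the second. Cngb3 (chromosome 4, 19280850 to 19510623) held 432 knockout and 431 wild-type insertions at its locus (0.00, -0.19 to 0.20). Its ends held 6 knockout and 9 wild-type insertions, at 0.401 IPKM in the knockout and 0.602 IPKM in the wild type. An open region 52050 bp inside the gene (19332900 to 19333299) was called in each library alone and held 16 knockout and 18 wild-type insertions. A stretch of 7.20 kb within Cngb3 (19386741 to 19393943) held no insertion in either library; 12 knockout and 12 wild-type reads lay there, all with mapping quality below 10.

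**Figure D2:**
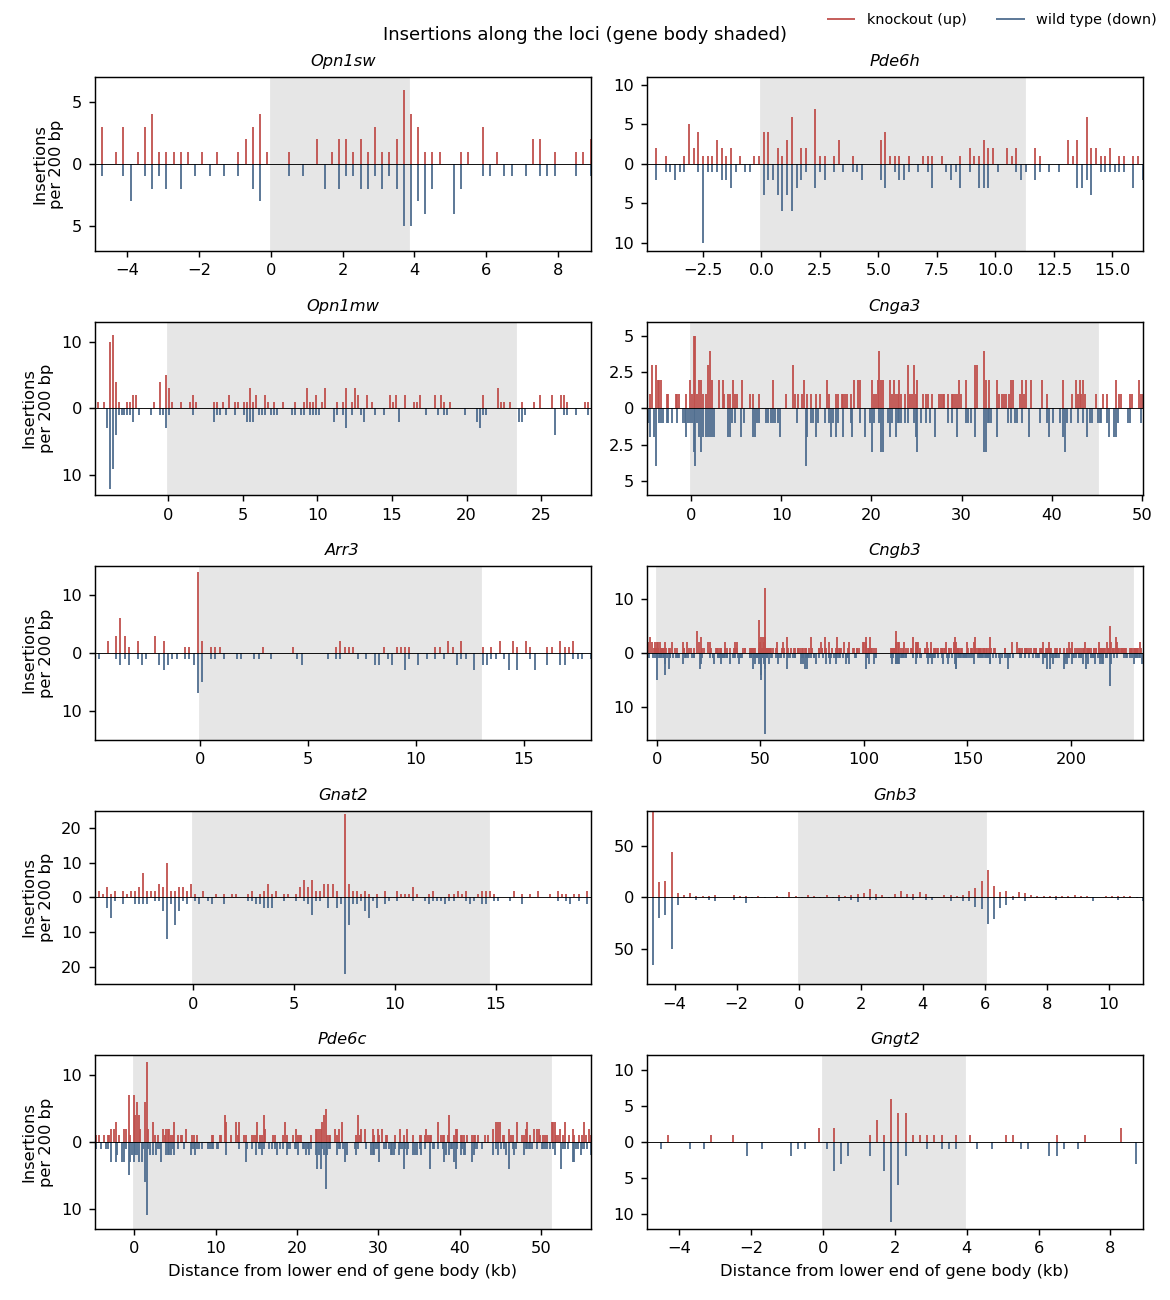
Insertions per 200 bp along each locus against the distance in kb from the lower-coordinate end of the gene body (shaded), with knockout counts drawn upward in red and wild-type counts downward in blue, each panel on its own scale. Stretches high in both libraries lie upstream of Opn1mw, at the start of Arr3, inside Gnat2, Cngb3 and Gngt2, and on both sides of Gnb3. The Pde6h bin at -2500 bp held 1 knockout and 10 wild-type insertions.

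Between the libraries no cone phototransduction gene was 2-fold apart. With at least 100 insertions summed, 0 of the 10 member loci and 0% of all 16724 loci were 2-fold apart, and at 1.5-fold Gngt2 was the 1 member past the limit, against 0.293% of all loci. Of the 10 loci 4 lay below 0, against 51.1% of all loci, and the median log2 ratio of the members was 0.04, against 0.00 for all loci. Summed over the members, 2011 knockout and 1987 wild-type insertions gave 0.01 (-0.08 to 0.11). Over gene bodies without flanks the intervals of 3 members left 0, those of Opn1mw and Gnb3 above and that of Arr3 below, against 6.44% of the 16310 bodies with at least 50 insertions, a minimum that all 10 members met; the flank was dropped for single genes after the data were seen.

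Near gene ends the counts were low. Within 500 bp of either end the members held 6 to 77 knockout and 9 to 79 wild-type insertions, summing to 214 and 205 (0.06, -0.22 to 0.34). Gnb3, with 77 and 79, was the 1 member at 100 insertions or more, and it was not 2-fold apart, as were 0% of the 7848 genes at that minimum. With no minimum 0 of 10 members were 2-fold apart, against 13.0% of 21027 genes. The ratios furthest from 0 were those of Gnat2, with 19 knockout and 11 wild-type insertions (0.76, -0.36 to 2.00), and Pde6c, with 25 and 15 (0.72, -0.25 to 1.76), and each of the 10 intervals included 0, where 2.74% of all genes had an interval off 0. The lower end of Gnat2 held 11 knockout and 5 wild-type insertions. It lay 101 bp from an end of Ampd2 and 6278 bp from the RefSeq start of Gnat2. Outside Gnb3, each of the other 9 intervals at gene ends was wide enough to include 1.5-fold in at least 1 direction.

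**Figure D3:**
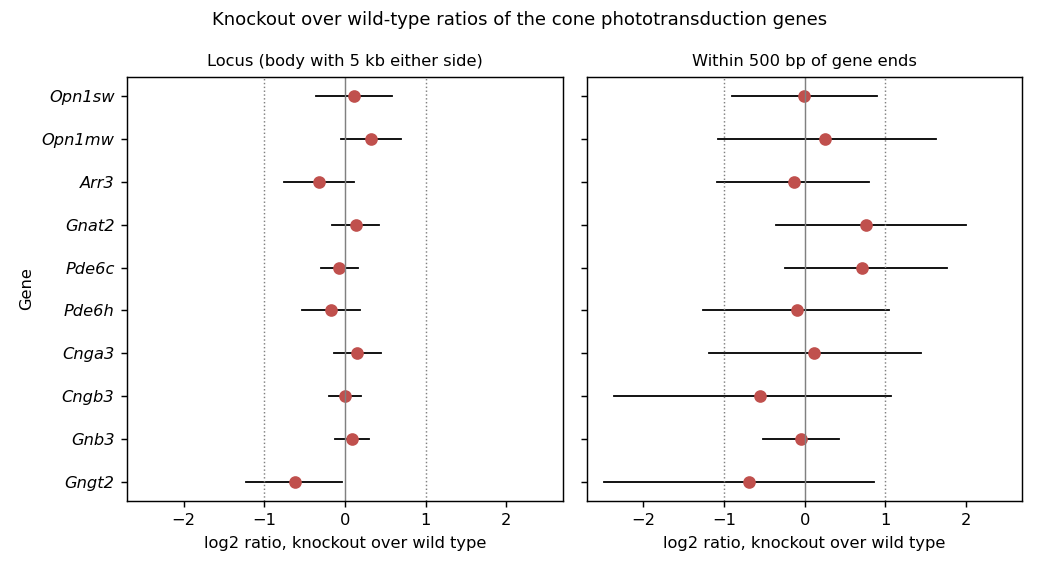
Log2 ratios of knockout over wild type with exact 95% counting intervals for the 10 genes, over the locus (left) and within 500 bp of gene ends (right), with 2-fold marked by dotted lines. At loci the interval of Gngt2 (-1.23 to -0.03) leaves 0, and at gene ends all 10 intervals include 0.

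Called on both libraries together, 16 open regions overlapped the loci, from 1 to 3 per gene, so that all 10 loci held at least 1, against 68.7% of all loci. An open region lay within 500 bp of a gene end for 3 of the 10 members, against 50.9% of all genes. With each library called by itself, 9 of the 16 regions were found for the knockout, 11 for the wild type and 8 for both, against 63.2%, 70.2% and 53.8% of all 36821 open regions. The regions, which were counted whole where they reached past a locus, held 569 knockout and 617 wild-type insertions (-0.12, -0.29 to 0.05). Of these 335 and 353 lay in 1 region, 3891 bp outside the body of Gnb3 and over an end of Cdca3, and without it, a choice made after the data were seen, the sums were 234 and 264 (-0.18, -0.44 to 0.08). An interval off 0 was found for 0 of the 16, against 3.26% of all 36821 open regions, whose median log2 ratio was -0.09. Over all open regions the knockout library had 18.8% of its autosomal insertions and the wild-type library 19.6%.

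The rod counterparts of these genes were more densely covered in both libraries. The loci of 11 rod phototransduction genes had a median of 2.11 IPKM in the knockout library and 2.12 IPKM for wild type and lowest values of 1.20 and 1.37 IPKM. Of the cone loci only that of Gnb3, at 3.23 and 3.05, lay above the lowest rod gene, and without the ends of other genes it lay at 1.34 and 1.06, a count not made for the rod genes. Over gene bodies with no flank the cone genes had medians of 0.732 and 0.759 IPKM and the rod genes 2.01 and 2.07 IPKM, with lowest rod values of 1.03 and 1.04 IPKM. Above these lay Gnat2, with 1.10 IPKM in the knockout library and 1.05 IPKM for wild type, Gnb3, with 2.17 and 1.42, and in the wild-type library Gngt2, with 0.911 and 1.32. The levels are a description across genes, which are not replicates, and the difference was not tested. Open regions within 500 bp of a gene end were found at 9 of the 11 rod genes, against 50.9% of all genes. Of the rod loci 8 of 11 lay below 0 (median -0.02), against 51.1% of all loci. Gngt1, the rod transducin gamma subunit, held 165 knockout and 210 wild-type insertions (-0.35, -0.65 to -0.05).

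Other phototransduction genes, most of which serve rods and cones alike, also had a median above that of the cone genes. The 15 loci had medians of 2.20 IPKM in the knockout library and 2.30 IPKM for wild type, with a range reaching down to 0.318 and 0.312. Of these 11 of 15 lay below 0 (median -0.05), against 51.1% of all loci. None was 1.5-fold apart, against 0.293% of all loci. Gucy2e, a guanylate cyclase that restores cyclic GMP, had 326 knockout and 372 wild-type insertions (-0.19, -0.41 to 0.03).

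**Figure D4:**
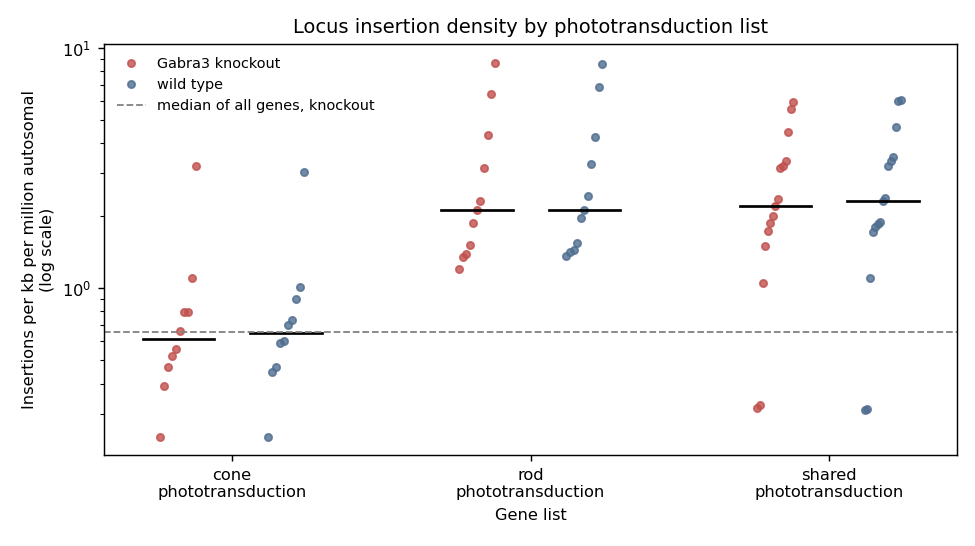
Insertions per kb per 1000000 autosomal insertions (IPKM) at gene loci, on a log scale, for the cone, rod and shared phototransduction genes, with 1 point per gene, knockout (red) left of wild type (blue) and black bars at the medians. The cone medians of 0.612 and 0.652 lie close to the median of all genes (dashed, knockout), and the rod medians of 2.11 and 2.12 lie above it.

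The libraries held 9038110 knockout and 9170838 wild-type reads, of which 7646373 and 7635799 insertions remained after filtering. The locus of Gabra3 does not check the genotype label: its body held 121 knockout and 126 wild-type insertions (log2 ratio -0.06, -0.43 to 0.31), and no exon positions were used here. Loci of 6 rod markers had median densities of 4.22 IPKM in the knockout library and 4.57 IPKM for wild type. Against these stood 0.263 and 0.232 for 5 markers of pigment epithelium and 0.505 and 0.426 for 5 of microglia. Vessels had 0.640 and 0.634 and lens 0.705 and 0.701, with 5 markers each. Markers of bipolar (0.467 and 0.444), amacrine (0.567 and 0.499), horizontal (0.358 and 0.429) and ganglion cells (0.490 and 0.496) lay in the same range. These densities do not tell such retinal neurons from the other tissues, and all genes had 0.658 and 0.652. The 5 markers of Muller glia had medians of 0.550 IPKM in the knockout library and 0.783 IPKM for wild type. An open region lay at a gene end of 50.9% of all genes. It did so for 6 of the 6 rod markers and 5 of 7 cone markers outside phototransduction. Counts for other retinal cells were 4 of 6 bipolar, 4 of 5 Muller glia, 3 of 5 ganglion, 2 of 4 horizontal and 1 of 5 amacrine markers. Lens had 2 of 5, and pigment epithelium, microglia and vessels had 0 of 5 markers each. The part of other cell types in the ratios above was not tested.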

How the data were processed

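Each line of the deposited files is 1 aligned read of 75 bp. The authors' score column is the mapping quality of the read, with no normalization. Per the submitters' processing notes, Trimmomatic 0.33, BWA and bedtools 2.23.0 were used with GRCm38 (mm10); a BWA version and any duplicate filter were not given in the sources used here. Reads with mapping quality of at least 10 were reduced to their 5-prime ends, 1 per position and strand, and shifted by 4 bp on the plus and -5 bp on the minus strand to the Tn5 insertion. This left out repeats, 9.41% of well placed knockout reads and 11.0% of wild-type reads, so strong sites are undercounted.

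Insertions were counted over the gene body with 5 kb either side and within 500 bp of both gene ends of a RefSeq gene table, which gives no strand. Open regions were 200 bp windows, stepped by 50 bp, whose Poisson p fell under 1e-05. The p was taken against the genome mean or the mean of the surrounding 10000 bp, whichever was higher. Windows within 150 bp were merged (36821 regions, median width 400 bp). Log2 ratios are knockout over wild type with pseudocount 0.5, scaled to all autosomal insertions, with Clopper-Pearson intervals; densities have exact Poisson intervals. Reads are not independent molecules, so intervals cover counting error only. Counting was checked on simulated data and used Python 3.11.15 with numpy 2.4.6 and scipy 1.17.1. All 10 members are named; of other lists, members with most insertions or the largest ratio, not all of them, and neighbours with ends inside a locus. The members, lists and motifs were chosen with earlier results of these data known. Results of a few named genes of the comparison lists are not reported here.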

Additional observations from a re-analysis of the deposited data

How the results depend on the processing

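No paired analysis was possible because each genotype had 1 library. The summed log2 ratios kept an interval that included 0 under every alternative but 1. At loci they ranged from -0.01 with 20 kb either side to 0.08 with scaling to open regions, which raised every log2 ratio by 0.06. At gene ends they ranged from -0.02 with 1000 bp either side to 0.27 within 500 bp of RefSeq transcript starts, an alternative chosen after seeing the data. In open regions they ranged from -0.19 to -0.06, and with all reads kept (789 knockout and 916 wild-type) the interval left 0 (-0.33 to -0.05); the cause was not tested. The number of member loci apart was 0 at 2-fold and 1 at 1.5-fold. The median locus density of the knockout library, 0.612, became 0.583 with no minimum mapping quality, 0.571 with all reads kept, 0.732 with no flank and 0.644 with 20 kb either side; the alternatives for the density were chosen after seeing the data. Of the single-gene alternatives 169 stayed within the interval of their value and 3, added after seeing the data, did not: with no flank Gnb3 had 0.61 and Arr3 -0.81, and over 1 kb from other genes' ends Gnb3 had 0.34; the cause was not tested. Depth limits single gene ends, where under 50 insertions do not resolve 1.5-fold.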

Other observations

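Genes that mark cones for other reasons than phototransduction held similar counts at their loci in both libraries. Thrb, the thyroid hormone receptor that patterns cone opsins, had 2355 knockout and 2362 wild-type insertions at its locus (log2 ratio -0.01, -0.09 to 0.08). Over the list of 7 genes the sums were 3505 and 3499 (0.00, -0.07 to 0.07), most of them at Thrb. Of these loci 3 of 7 lay below 0, against 51.1% of all loci. The median density was 0.806 insertions per kb per 1000000 autosomal insertions in the knockout library and 0.810 for wild type. Within 500 bp of gene ends Thrb had 52 knockout and 33 wild-type insertions (0.65, -0.00 to 1.33), and the 7 genes summed to 242 and 214 (0.17, -0.10 to 0.45). At its locus Ccdc136, on chromosome 6 like Opn1sw, had 274 and 318 (-0.22, -0.46 to 0.02).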
